A study of Mus musculus with 12 samples.

Results

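The 35 genes described here are skeletal muscle genes measured in whole skin: 8 encode myosins and other thick filament proteins, 9 thin filament proteins, 6 proteins of the Z-disc, titin and the intermediate filament desmin, 5 calcium handling proteins, 5 proteins of energy metabolism and 2 ubiquitin ligases of muscle. They were listed by name for their known role in skeletal muscle, with earlier results of these data known. All 35 were measured, among 18193 genes in all. For each gene the probe set (the group of probes on the array that reads 1 transcript) annotated to no other gene was taken, and where several existed the one with the brightest mean signal. The study asked whether the aryl hydrocarbon receptor (AhR), a ligand-activated transcription factor that senses environmental compounds, influences skin inflammation evoked by imiquimod (IMQ), a Toll-like receptor agonist applied to shaved back skin as a cream. Total RNA of mouse skin from 4 groups was hybridized to Affymetrix arrays, with 3 arrays labelled as biological replicates in each group. Skin came from Ahr+/- mice (labelled AhR HET) and Ahr-/- mice (labelled AhR KO), of each either untreated or collected 2 days after the start of IMQ. The Ahr-/- mice lack AhR in every cell, and the controls were heterozygous littermates that carry 1 null allele, so no group carried only wild-type alleles. The knockout line is listed in the study's methods as a B6;129 stock. Sex and age were not given in the sources used here. The untreated skin is labelled day 0 and no group received cream without the drug, so imiquimod, the cream, its application and 2 days of time cannot be told apart. Nothing more is given on how the replicate mice were kept or processed, and p-values measure only the spread between these arrays.

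Mouse skin rests on a thin sheet of striated muscle, the panniculus carnosus, which is rich in fast-contracting fibres and moves the skin. In a striated fibre, thick filaments of myosin pull on thin filaments of actin that are anchored at the Z-disc, while calcium released from the sarcoplasmic reticulum switches the thin filament on through troponin and is then pumped back. RNA of skin taken with this sheet holds the transcripts of this sheet together with those of epidermis, dermis, fat and hair follicles. In such bulk RNA fewer muscle cells and less of a transcript per muscle cell cannot be told apart.

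The defining markers of skeletal muscle were present on every array. The 6 genes fixed as skeletal muscle markers (Acta1, Ckm, Myh4, Tnnt3, Mylpf and Tnnc2) had a mean log2 signal of 13.28 to 14.30 on the 12 arrays, while 6 heart muscle markers (Myh6, Nppa, Nppb, Tnnt2, Tnni3 and Mybpc3) had a mean of 5.0 to 6.09. The highest signal on any array was 14.92, and Acta1, skeletal actin, lay at 14.27 to 14.83 throughout, close to the top of the measured range. Myh6, the heart myosin, stayed between 3.10 and 3.73. Nppb, a natriuretic peptide gene, was the exception in the heart list and rose after IMQ in both genotypes, from 5.20 to 6.41 up to 7.62 to 9.81 in Ahr+/- skin and from 5.39 to 5.85 up to 8.74 to 9.56 in Ahr-/- skin. Ahr itself gave signals of 10.11 to 11.30 in untreated Ahr+/- and 11.29 to 11.44 in untreated Ahr-/- skin, and of 9.79 to 10.27 and 9.07 to 9.87 on day 2. The array thus did not separate the genotypes by their targeted gene, and where its probe set lies relative to the deleted part was not determined.

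Arrays that stood apart touch the muscle genes directly. In untreated Ahr+/- replicate 2 the signal lay below both other replicates of its group in 31 of the 35 genes, with a median difference of -1.01 on the log2 scale from the mean of replicates 1 and 3, against 0.02 over all genes. The same array had a mean log2 signal of 12.003 over 11 genes of growing hair follicles, against 8.20 and 8.43 in the other replicates of the group. In untreated Ahr-/- skin that mean was 6.14 to 7.46. In Ahr-/- IMQ replicates 1 and 2 the probe set at the 3' end of Gapdh exceeded that at its 5' end by 1.17 and 1.52 on the log2 scale, against 0.14 to 0.53 on the other 10 arrays, a measure that is read as a sign of RNA degradation. Both of those arrays lay below replicate 3 in 21 of the 35 muscle genes, compared with 29.5% of all genes. Without both, 1 of the 35 genes was called in each genotype on day 2 (Pvalb in Ahr+/- and Actn2 in Ahr-/- skin), with 1 treated Ahr-/- array left, where 8.11% and 7.94% of all genes were called. The part of hair growth and of RNA quality in the results below was not tested. With only that array left, the Ahr-/- differences of Casq1 (-1.59), Pvalb (-1.46), Myh4 (-1.37), Mybpc2 (-0.99), Actn3 (-0.87) and Trim63 (2.00) kept their direction and lost their call. Those of Myl1, Mylpf, Eno3, Myoz1, Des and Actn2 moved by over 1.5 times and are given with each gene. Actn2 went from 0.94 to 1.71, and the array left was its highest. Acta1 went from -0.31 to -0.002 and Fbxo32 from 0.07 to -0.19.

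**Figure D1:**
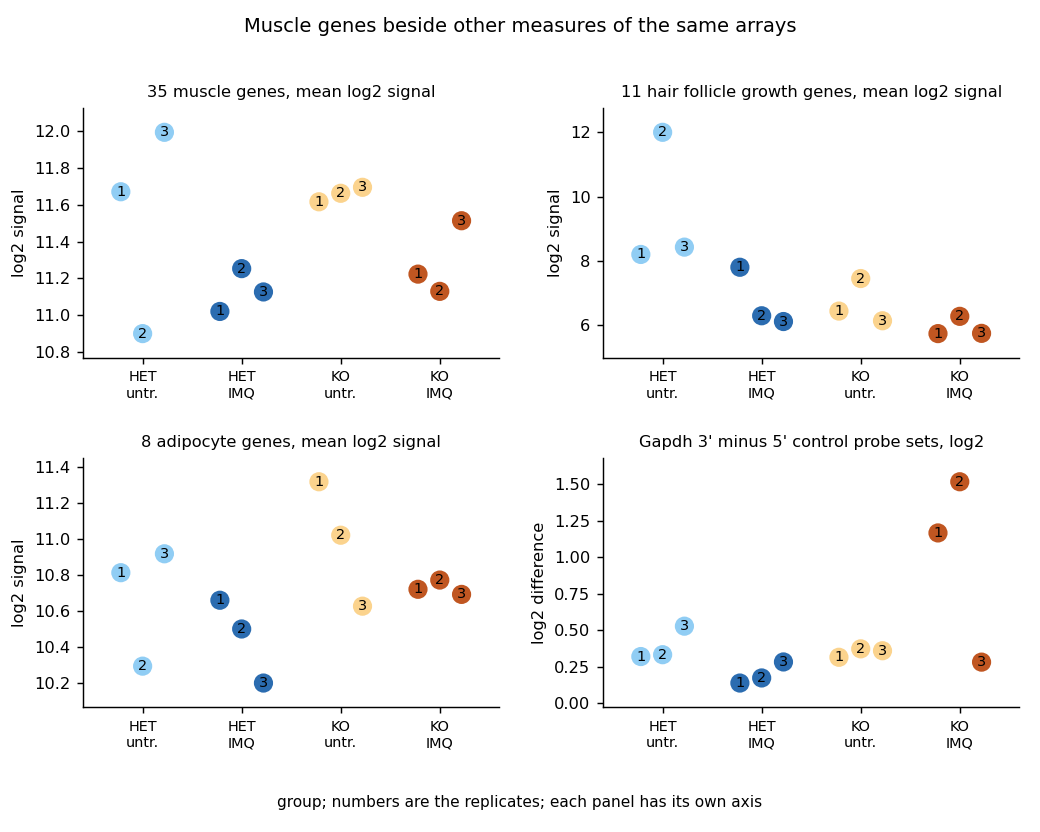
Points are single arrays, numbered by replicate, in the 4 groups, and each panel has its own vertical axis: the mean log2 signal of the 35 muscle genes, of 11 hair follicle growth genes and of 8 adipocyte genes, and the log2 signal at the 3' end of Gapdh minus that at its 5' end. Untreated Ahr+/- replicate 2 has the lowest muscle mean (10.90) and the highest hair follicle mean (12.003), and Ahr-/- IMQ replicates 1 and 2 have the highest Gapdh differences (1.17 and 1.52).

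On day 2 of IMQ Casq1, Pvalb and Mybpc2 were lower in both genotypes, and in Ahr-/- skin 6 more muscle genes were lower and Trim63 and Actn2 higher. A gene was called when limma gave an adjusted p under 0.05, corrected over all genes, and a fold change of at least 1.5. In Ahr+/- skin 3 of the 35 genes fell (Pvalb, Casq1 and Mybpc2) and none rose, where 3.83% of all genes were called lower, 5.22% higher and 9.05% in either direction. Of the same genes in Ahr-/- skin 9 fell (Casq1, Pvalb, Myh4, Actn3, Myoz1, Myl1, Eno3, Mybpc2 and Mylpf) and 2 rose (Trim63 and Actn2), where 12.1% of all genes were called lower, 10.6% higher and 22.7% in either direction. Below 0 lay 28 of the 35 log2 differences in Ahr+/- skin, with a median of -0.44 against -0.01 over all genes, and 26 of 35 in Ahr-/- skin, with a median of -0.36 against 0.07. Without Ahr-/- IMQ replicates 1 and 2, with 1 treated array left, the Ahr-/- median was -0.12 against 0.03 over all genes.

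Array by array, the groups separated more often in Ahr-/- skin. After IMQ the 3 treated arrays did not overlap with the 3 untreated ones in 20 of the 35 genes there (15 lower and 5 higher), against 42.7% of all genes. The Ahr+/- arrays did not overlap in 3 of 35 (2 lower and 1 higher), against 29.8% of all genes. Untreated Ahr+/- replicate 2 lay among the treated arrays for many genes, and without it 17 of the 35 genes were called lower in Ahr+/- skin, where 1146 of all 18193 genes were called lower. Those 17 were the 3 above and Actn3, Atp2a1, Cacna1s, Ckm, Cox6a2, Eno3, Myh4, Mylpf, Myoz1, Pygm, Ryr1, Tnnc2, Tnni2 and Tnnt3. Without untreated Ahr+/- replicate 1 or 3, or without IMQ Ahr+/- replicate 1 or 3, none was called. Without IMQ Ahr+/- replicate 2, IMQ Ahr-/- replicate 2 or any single untreated Ahr-/- array, 1 was called. Over all genes 4.95% to 10.1% were called in the former fits and 5.41% to 9.17% in the latter. The count in Ahr-/- skin was 5, 6 and 4 without untreated replicate 1, 2 and 3, and 4 and 5 without treated replicate 1 and 2. A rank product, the kind of test named in the study's methods and rebuilt here with its thresholds, called none of the 35 in either genotype. Over all genes the rank product called 146 higher and 82 lower in Ahr+/- skin and 181 higher and 157 lower in Ahr-/- skin. Limma called 3 and 11 of the 35, and 12 and 15 had an unadjusted p under 0.05. Of all 18193 genes 4522 and 7032 had such an unadjusted p.

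**Figure D2:**
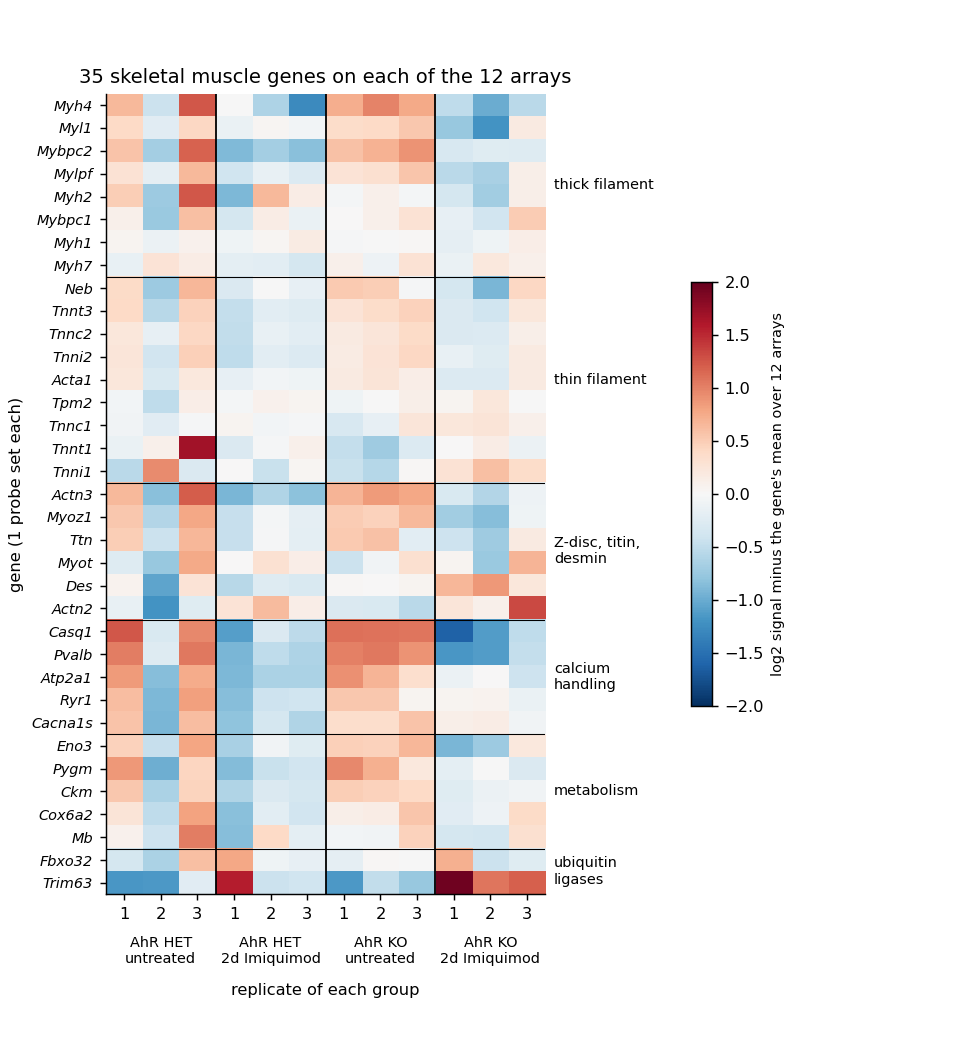
Each row is 1 of the 35 muscle genes, grouped by role, and each column 1 of the 12 arrays. The colour gives the log2 signal minus the gene's mean over the 12 arrays, from -2 (blue) to 2 (red). Casq1 and Pvalb are red in the untreated Ahr-/- arrays and blue in the treated ones, Trim63 runs the other way, and untreated Ahr+/- replicate 2 is bluer than its neighbours.

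Of the calcium handling genes, Casq1 and Pvalb fell in both genotypes and Atp2a1, Ryr1 and Cacna1s passed in neither. Casq1 encodes calsequestrin 1, which stores calcium in the sarcoplasmic reticulum of fast fibres. Its log2 signals were 11.80, 10.25 and 11.51 in untreated and 9.46, 10.25 and 10.02 in IMQ-treated Ahr+/- skin. In Ahr-/- skin they were 11.65, 11.63 and 11.62 without treatment and 8.94, 9.44 and 10.05 after IMQ. Every treated Ahr-/- array thus lay below every untreated one, and in Ahr+/- skin only the low replicate 2 of the untreated group touched the treated range. Casq1 was 4.46-fold lower in Ahr-/- skin (log2 difference -2.16, standard error 0.37, limma adjusted p = 0.00111) and 2.42-fold lower in Ahr+/- skin (-1.28, standard error 0.37, limma adjusted p = 0.0464).

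Pvalb encodes parvalbumin, the calcium buffer of fast fibres that speeds relaxation. Its log2 signals were 13.43, 12.15 and 13.47 in untreated and 11.49, 11.90 and 11.78 in IMQ-treated Ahr+/- skin, and 13.41, 13.46 and 13.31 and then 11.23, 11.29 and 11.93 in Ahr-/- skin. Treated and untreated arrays did not overlap in either genotype. The signal was 2.45-fold lower after IMQ in Ahr+/- skin (log2 difference -1.29, standard error 0.31, limma adjusted p = 0.0191) and 3.74-fold lower in Ahr-/- skin (-1.90, standard error 0.31, limma adjusted p = 0.000762). Both genes passed in Ahr-/- skin under 24 of 26 other settings, the exceptions being the rank product and the fit without Ahr-/- IMQ replicates 1 and 2, in which the highest adjusted p of any setting was reached, 0.0907 for Casq1 and 0.0753 for Pvalb. Pvalb passed in Ahr+/- skin under 18 of 26 other settings and Casq1 under 10, with adjusted p of up to 0.253 and 0.263.

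The remaining calcium genes pointed the same way without passing. Atp2a1, the fast-fibre calcium pump SERCA1, had signals of 12.60, 10.88 and 12.48 against 10.84, 11.11 and 11.10 in Ahr+/- skin and of 12.65, 12.42 and 12.08 against 11.62, 11.75 and 11.33 in Ahr-/- skin. The differences were -0.97 (adjusted p = 0.108) and -0.82 (adjusted p = 0.109). Ryr1, the calcium release channel, and Cacna1s, the voltage sensor of the transverse tubule, had differences of -0.74 and -0.68 in Ahr+/- skin and of -0.39 and -0.36 in Ahr-/- skin, with adjusted p of 0.21 to 0.451. A second Ryr1 probe set, not used in the counts, read -2.39 and -2.67.

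Of the 8 thick filament genes, Mybpc2 fell in both genotypes and Myh4, Myl1 and Mylpf in Ahr-/- skin. Myh4 encodes the myosin heavy chain of the fastest, type IIb fibres. In Ahr+/- skin its log2 signals were 13.74, 12.66 and 14.33 without and 13.08, 12.47 and 11.81 with IMQ, and the groups overlapped (difference of -1.12, adjusted p = 0.0804). In Ahr-/- skin they were 13.81, 14.09 and 13.85 without and 12.58, 12.10 and 12.55 with IMQ, with no overlap, a 2.84-fold fall (log2 difference -1.51, standard error 0.38, limma adjusted p = 0.0104). Mybpc2, the fast form of myosin-binding protein C, went from 12.38, 11.13 and 12.99 to 10.93, 11.14 and 10.98 in Ahr+/- skin, and from 12.40, 12.51 and 12.71 to 11.50, 11.57 and 11.55 in Ahr-/- skin. The falls were 2.22-fold (limma adjusted p = 0.0475) and 2.00-fold (limma adjusted p = 0.0417), both close to the threshold.

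The alkali light chain gene Myl1 had signals of 14.19, 14.22 and 14.36 in untreated and 13.06, 12.63 and 14.004 in treated Ahr-/- skin, a 2.03-fold fall (log2 difference -1.02, standard error 0.28, limma adjusted p = 0.0179). The 2 low values were those of the arrays with the high Gapdh difference, and without both arrays Myl1 was lower by 0.25 on the log2 scale and not called (adjusted p = 0.608, the highest over its settings). Mylpf, the fast regulatory light chain, fell 1.67-fold there (adjusted p = 0.0291), from 13.84, 13.87 and 14.10 to 13.02, 12.90 and 13.67. Without the same 2 arrays its difference was -0.26 and the call was lost (adjusted p = 0.627). The other 4 did not pass in either genotype. Myh7, the slow and cardiac myosin, was dim, at 5.80, 6.21 and 6.09 before and 5.75, 5.72 and 5.58 after IMQ in Ahr+/- skin and at 6.04, 5.84 and 6.22 and then 5.81, 6.15 and 6.03 in Ahr-/- skin. Its differences were -0.35 (adjusted p = 0.19) and -0.04 (adjusted p = 0.885). Myh1, the type IIx myosin, read 0.04 and -0.05, Myh2, the type IIa myosin, -0.37 and -0.32, and Mybpc1, the slow form of myosin-binding protein C, -0.10 and -0.14. The Myh1 probe set can share probes with near-identical myosin genes and its value is uncertain.

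None of the 9 thin filament genes passed in either genotype. Acta1 was at 14.80, 14.27 and 14.78 before and 14.40, 14.52 and 14.48 after IMQ in Ahr+/- skin and at 14.74, 14.83 and 14.70 and then 14.29, 14.29 and 14.76 in Ahr-/- skin. The groups overlapped in both genotypes, with differences of -0.15 (adjusted p = 0.661) and -0.31 (adjusted p = 0.205) at the top of the measurable range. The fast troponin genes Tnnc2, Tnni2 and Tnnt3, whose products bind calcium, inhibit and anchor to tropomyosin, had differences of -0.44, -0.44 and -0.42 in Ahr+/- skin and -0.42, -0.35 and -0.52 in Ahr-/- skin. Neb, nebulin, the ruler of the thin filament, read -0.26 and -0.62, and Tpm2, beta-tropomyosin, 0.17 and 0.09. Other Tpm2 probe sets, not used in the counts, read -0.41 to 0.22 in Ahr+/- and -0.80 to -0.09 in Ahr-/- skin.

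The slow troponin genes were dim and none was called. In Ahr-/- skin the differences of Tnnc1 (0.28), Tnni1 and Tnnt1 all lay above 0, while in Ahr+/- skin only that of Tnnc1 (0.10) did. Tnni1 had signals of 5.29, 6.78 and 5.53 in untreated and 5.85, 5.38 and 5.88 in treated Ahr+/- skin, and of 5.39, 5.26 and 5.85 and then 6.13, 6.44 and 6.19 in Ahr-/- skin. In the latter the groups did not overlap, but the difference of 0.75 did not pass (adjusted p = 0.0992). Tnnt1 was at 6.14, 6.38 and 7.95 before and 5.98, 6.25 and 6.37 after IMQ in Ahr+/- skin and at 5.79, 5.56 and 6.0 and then 6.28, 6.42 and 6.15 in Ahr-/- skin, with differences of -0.62 (adjusted p = 0.312) and 0.50 (adjusted p = 0.326). Tnnc1, shared by slow and heart muscle, stayed between 5.32 and 5.90.

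At the Z-disc 2 genes fell and 1 rose in Ahr-/- skin, and none passed in Ahr+/- skin. Actn3, the alpha-actinin of fast fibres, was at 12.93, 11.44 and 13.49 before and 11.36, 11.68 and 11.45 after IMQ in Ahr+/- skin (a difference of -1.12, adjusted p = 0.0799), and went from 12.94, 13.12 and 13.05 to 11.96, 11.68 and 12.17 in Ahr-/- skin. The latter was a 2.14-fold fall (log2 difference -1.1, standard error 0.38, limma adjusted p = 0.0455). Myoz1, the fast-fibre calsarcin that tethers calcineurin to the Z-disc, fell 2.12-fold in Ahr-/- skin (adjusted p = 0.0182), from 11.88, 11.83 and 12.02 to 10.68, 10.52 and 11.28. Without the 2 arrays with the high Gapdh difference the values were -0.87 for Actn3 and -0.63 for Myoz1, and neither was called with 1 treated array left.

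Actn2, the alpha-actinin found in all striated fibres, ran against the others. Its log2 signals were 10.86, 9.81 and 10.76 before and 11.27, 11.63 and 11.13 after IMQ in Ahr+/- skin (a difference of 0.87, adjusted p = 0.114). In Ahr-/- skin they were 10.71, 10.70 and 10.45 and then 11.25, 11.10 and 12.33 (log2 difference 0.94, standard error 0.32, limma adjusted p = 0.0471). The groups did not overlap in either genotype. The call in Ahr-/- skin was close to the threshold and was lost under 13 of 26 other settings. Without treated replicate 3, the highest array, the difference was 0.56. Without treated replicates 1 and 2, which leaves that highest array alone, it was 1.71. Desmin, the intermediate filament that links neighbouring Z-discs, was at 11.17, 10.05 and 11.37 before and 10.54, 10.84 and 10.80 after IMQ in Ahr+/- skin and at 11.13, 11.11 and 11.15 and then 11.77, 11.96 and 11.32 in Ahr-/- skin. Its gene, Des, is also active in smooth muscle. All 3 treated Ahr-/- arrays were above the untreated ones, but the difference of 0.55 did not pass (adjusted p = 0.169; 0.19 without treated replicates 1 and 2), nor did that of -0.14 in Ahr+/- skin (adjusted p = 0.832). Ttn, titin, read -0.47 and -0.62, and Myot, myotilin, 0.24 and 0.06.

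Of the 5 genes of energy metabolism Eno3, the muscle enolase of glycolysis, fell in Ahr-/- skin, 2.02-fold (log2 difference -1.01, standard error 0.33, limma adjusted p = 0.0351), with signals of 13.61, 13.59 and 13.80 before and 12.22, 12.41 and 13.33 after IMQ. The call was lost without the 2 arrays with the high Gapdh difference, where the difference was -0.33. Ckm, muscle creatine kinase, was at 13.94, 12.77 and 13.85 and then 12.80, 13.12 and 13.06 in Ahr+/- skin and at 13.90, 13.87 and 13.81 and then 13.17, 13.28 and 13.33 in Ahr-/- skin. The latter groups did not overlap, yet the differences of -0.53 (adjusted p = 0.21) and -0.60 (adjusted p = 0.092) did not pass. Pygm, the muscle glycogen phosphorylase, read -0.67 and -0.79, Cox6a2, a muscle subunit of cytochrome c oxidase, -0.67 and -0.26, and Mb, myoglobin, -0.45 and -0.25. All 10 differences of this group lay below 0.

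Trim63 encodes MuRF1 and Fbxo32 encodes atrogin-1, ubiquitin ligases that mark muscle proteins for breakdown during wasting. Trim63 rose in Ahr-/- skin, 4.61-fold, the largest change among the 35 genes in that comparison (log2 difference 2.21, standard error 0.47, limma adjusted p = 0.00428). Its signals were 9.32, 9.99 and 9.72 before and 12.42, 11.55 and 11.67 after IMQ, with no overlap. In Ahr+/- skin they were 9.31, 9.32 and 10.25 and then 12.05, 10.04 and 10.08, so that 1 treated array stood high and the other 2 lay within the untreated range (log2 difference 1.1, standard error 0.47, adjusted p = 0.168). The call in Ahr-/- skin was kept under 23 of 26 other settings, with adjusted p of up to 0.121. Fbxo32, with the probe set used, showed no such separation, at 9.86, 9.58 and 10.81 and then 10.99, 10.13 and 10.05 in Ahr+/- skin and at 10.04, 10.24 and 10.20 and then 10.93, 9.79 and 9.97 in Ahr-/- skin. Its differences were 0.30 (adjusted p = 0.669) and 0.07 (adjusted p = 0.899). The highest treated value of both ligase genes came from replicate 1 in each genotype.

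**Figure D3:**
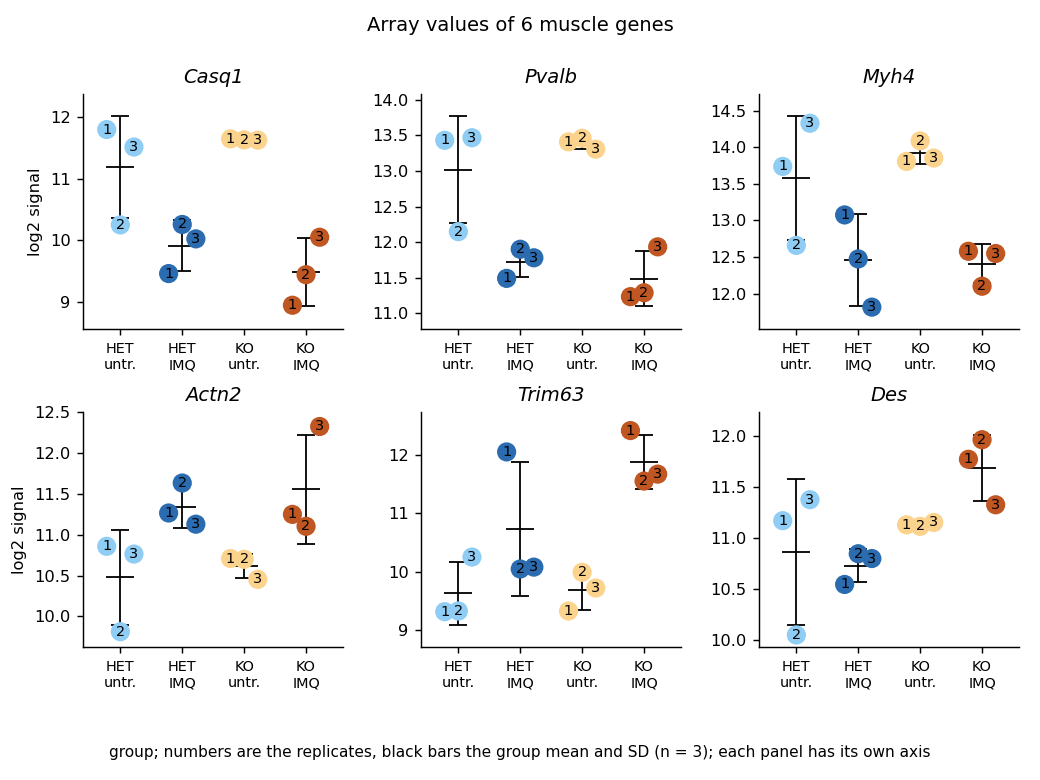
Log2 signals of 6 muscle genes on the 12 arrays; numbered points are replicates, black bars the group mean and SD (n = 3), and each panel has its own vertical axis. Casq1, Pvalb and Myh4 lie lower and Actn2 and Trim63 higher after IMQ in Ahr-/- skin, and the untreated Ahr+/- replicate 2 is the lowest of its group for Casq1, Pvalb, Myh4, Actn2 and Des.

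The sequences just before the transcription start of the 2 genes with the largest falls and of the gene with the largest rise are shown because muscle transcription factors are known to bind E-boxes (CANNTG, the letters recognized by MyoD and its relatives) and MEF2 sites. RefSeq promoter entries on build GRCm38.p6 were found for 27 of the 35 genes, and the 250 bases before the start were searched on both strands. An E-box was present in 23 of the 27 (85.2%), against 66.0% of 27025 promoters in all, a MEF2 site in 4 (14.8% against 1.73%) and TATAAA, which can overlap a MEF2 site, in 6 (22.2% against 13.0%). Casq1 (chr1:172219896-172220145, minus strand) and Trim63 (chr4:134314870-134315119, plus strand) are printed with E-boxes in capitals, 2 and 3 in number, and Pvalb (chr15:78206401-78206650, minus strand), which holds no E-box in this window, with its MEF2 site in capitals. A match of letters is a description and shows no binding.
Casq1: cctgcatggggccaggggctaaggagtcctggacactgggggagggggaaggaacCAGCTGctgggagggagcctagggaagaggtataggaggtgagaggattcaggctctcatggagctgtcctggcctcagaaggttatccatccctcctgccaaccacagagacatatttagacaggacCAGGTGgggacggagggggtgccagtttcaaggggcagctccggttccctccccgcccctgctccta
Pvalb: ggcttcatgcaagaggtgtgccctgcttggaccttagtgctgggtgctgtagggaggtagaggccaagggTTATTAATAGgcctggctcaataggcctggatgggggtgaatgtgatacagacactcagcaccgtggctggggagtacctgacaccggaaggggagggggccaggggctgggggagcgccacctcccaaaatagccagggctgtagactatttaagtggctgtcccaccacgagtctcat
Trim63: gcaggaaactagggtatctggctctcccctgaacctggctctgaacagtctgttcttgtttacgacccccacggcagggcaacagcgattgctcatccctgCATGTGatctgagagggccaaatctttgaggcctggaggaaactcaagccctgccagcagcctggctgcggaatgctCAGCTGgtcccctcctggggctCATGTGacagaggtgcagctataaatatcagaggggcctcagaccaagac

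The members were also grouped by fibre type, in lists likewise chosen with earlier results of these data known, so their counts are descriptions. Of 14 members typical of fast fibres 3 fell in Ahr+/- and 8 in Ahr-/- skin, where 3.83% and 12.1% of all genes were called lower, and none rose. Their median log2 differences were -0.50 and -0.91. The remaining fall in Ahr-/- skin was that of Eno3, which is in neither fibre list. Of 4 members typical of slow fibres (Myh7, Tnnc1, Tnni1 and Tnnt1) none was called, with medians of -0.26 and 0.39, but their signals of 5.26 to 7.95 leave little room for a fall. Mybpc1, the slow form of myosin-binding protein C, is in neither fibre list. It was bright with the probe set used (11.16 to 12.51) and read -0.10 and -0.14. The difference between fast and slow genes was not tested. Not every fast gene was called: Myh1, Myh2, Tnnc2, Tnni2, Tnnt3 and Atp2a1 passed in neither genotype. Of these, Myh1 lay near 0 (0.04 and -0.05). The others lay below 0 in both genotypes, from -0.97 (Atp2a1 in Ahr+/- skin) to -0.32 (Myh2 in Ahr-/- skin).

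The genes also moved unequally within the muscle list. With each array centred on the median of the 35 genes, a scaling chosen after the data were seen, Casq1, Pvalb and Myh4 stayed lower in Ahr-/- skin (-1.86, -1.61 and -1.21) and Trim63 and Actn2 higher (2.5 and 1.23). The falls of Mybpc2, Mylpf, Myl1, Myoz1, Actn3 and Eno3 were no longer called on that scale. In Ahr+/- skin the 3 falls were lost and Trim63 and Actn2 were called higher than the list's median (1.53 and 1.3), so the direction of the calls turned there. This scaling removes whatever the 35 genes share, and a ratio within the list shows unequal change, not that any member stayed constant.

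**Figure D4:**
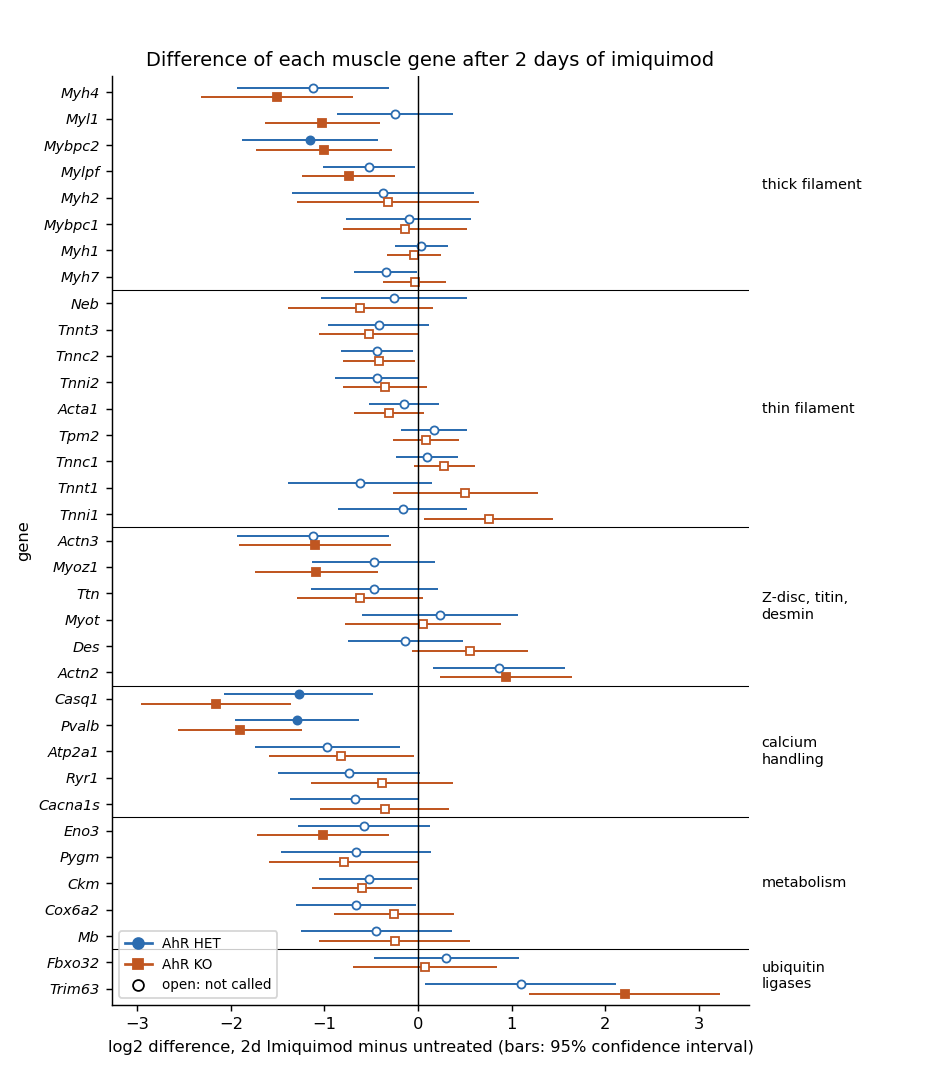
Log2 difference of each of the 35 genes, 2 days of IMQ minus untreated, in Ahr+/- (blue circles) and Ahr-/- skin (orange squares), with 95% confidence intervals from limma; filled symbols were called and open ones were not. Casq1 and Pvalb lie farthest left (-2.16 and -1.90 in Ahr-/- skin) and Trim63 farthest right (2.21), and the intervals of the 2 genotypes overlap for every gene drawn.

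Between the genotypes no muscle gene was called. After IMQ, 0 of 35 passed in limma (2 with an unadjusted p under 0.05, and 0 by the rank product), where 3.98% of all genes were called. Of all 18193 genes 3828 had an unadjusted p under 0.05. Des was higher in all Ahr-/- arrays than in all Ahr+/- ones (log2 difference 0.96, 95% confidence interval 0.34 to 1.57, adjusted p = 0.0798), and Trim63 overlapped (1.16, interval 0.14 to 2.17, adjusted p = 0.184). The lowest differences were those of Myl1 (-0.54) and Casq1 (-0.43). The groups did not overlap in 11 of the 35 genes, each higher in Ahr-/- skin, against 33.0% of all genes. Without untreated Ahr+/- replicate 2, treated Ahr+/- replicate 1 or treated Ahr-/- replicate 3, 2, 1 and 2 genes were called. In these fits 6.85%, 4.15% and 7.07% of all genes were called.

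In untreated skin 0 of 35 passed, where 0.0055% of all genes were called. Of the 35 genes 1 had an unadjusted p under 0.05, against 1180 of all 18193. Above 0 lay 30 of the 35 differences, with a median of 0.15 against 0.02 over all genes, and the groups did not overlap in 1 gene, Tnnt1 (-1.04, adjusted p = 0.719), against 8.81% of all genes. Without untreated Ahr+/- replicate 3, the highest Tnnt1 array at 7.95, that difference was -0.48. Pygm (0.53) and Casq1 (0.45) had the highest and Tnnt1 and Tnni1 (-0.37) the lowest values. Without the low Ahr+/- replicate 2 the values of Pygm and Casq1 were -0.01 and -0.02, and that of Tnni1 0.09. The genotype comparisons of untreated and of treated skin share no array, but each shares arrays with the comparisons of IMQ with untreated skin. The values are set side by side without an overlap.

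The difference between the responses, tested as an interaction, passed for 0 of the 35 genes in limma, where 1.32% of all genes were called. Of the 35 genes 1 had an unadjusted p under 0.05, against 3185 of all 18193. The change of Casq1 was lower by 0.88 in Ahr-/- than in Ahr+/- skin on the log2 scale (95% confidence interval -2.01 to 0.25, adjusted p = 0.412), and that of Trim63 higher by 1.11 (interval -0.33 to 2.55, adjusted p = 0.417). The highest value was that of Tnnt1 (1.13, adjusted p = 0.271; 0.56 without untreated Ahr+/- replicate 3), and after Casq1 the lowest was that of Myl1 (-0.78, adjusted p = 0.348). Without treated Ahr-/- replicate 3, 1 of the 35 was called, where 3.40% of all genes were called. The 9 falls in one genotype against 3 in the other therefore do not show that the genotypes differed.

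Muscle genes outside the list gave a similar mixture. Of 45 measured genes of the sarcomere, triad and muscle metabolism (48 listed) 3 fell in Ahr+/- skin and 11 fell and 5 rose in Ahr-/- skin, with medians of -0.35 and -0.56. The falls were 6.67% and 24.4% of the 45, against 3.83% and 12.1% of all genes called lower. Over all genes 10.6% were called higher in Ahr-/- skin. Ampd1, the AMP deaminase of muscle, fell by 1.75 and 2.36 on the log2 scale (adjusted p = 0.0214 and 0.00158), from 10.53, 8.87 and 10.98 to 7.84, 8.69 and 8.60 in Ahr+/- skin and from 10.10, 10.39 and 10.69 to 8.07, 8.21 and 7.82 in Ahr-/- skin. Jph2, a junctophilin that holds the triad together, and Sypl2, a triad membrane protein, fell in both genotypes, Jph2 by 1.32 and 1.0 and Sypl2 by 1.1 and 1.21 on the log2 scale. Dhrs7c, a short-chain dehydrogenase of the sarcoplasmic reticulum, fell in Ahr-/- skin (-1.90).

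The 5 genes that rose in Ahr-/- skin, the last 3 of them named after their values were seen, were Klhl40, a stabilizer of thin filament proteins (2.01), Myoz2, the slow-fibre and cardiac calsarcin (1.74), Lmod2, which elongates thin filaments (1.73), Sln, sarcolipin, an inhibitor of the calcium pump (1.51), and Mylk2, the skeletal myosin light chain kinase (1.07). Klhl40 was the only one of these 45 called between the genotypes on day 2, where 3.98% of all genes were called. Its signals were 7.89, 8.39 and 7.56 in treated Ahr+/- and 10.09, 10.08 and 9.78 in treated Ahr-/- skin (log2 difference 2.03, standard error 0.31, limma adjusted p = 0.00382), and 6.77 to 8.09 in the untreated arrays.

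Of 15 measured regulators of muscle development (17 listed) Myod1, a master transcription factor of the lineage, and Ncam1 fell in Ahr+/- skin (-1.15 and -1.04), while Mef2c, Ncam1 and Mef2a fell and Chrna1, a subunit of the acetylcholine receptor, rose in Ahr-/- skin (-1.54, -0.82, -0.74 and 0.73). The falls were 13.3% and 20.0% of the 15, against 3.83% and 12.1% of all genes called lower. Myod1 was dim, at 5.43 to 7.17, and Mef2c and Ncam1 are also active outside muscle. The embryonic myosin Myh3 stayed at 4.36 to 5.22 and Myog, myogenin, at 5.70 to 6.87, and neither was called; both were chosen for mention after their values were seen.

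Marker lists of other cell types also held called genes on the same arrays. Over all genes 3.83% were called lower and 5.22% higher in Ahr+/- skin, and 12.1% and 10.6% in Ahr-/- skin. A single call in so short a list is not read as a shift of the cell type. Of 8 smooth muscle markers 4 fell in Ahr-/- skin (Lmod1, Actg2, Myh11 and Cnn1) and none was called in Ahr+/- skin, with medians of -0.67 and -0.56. Of 8 measured adipocyte markers Lep fell in Ahr+/- skin (-1.57) and Adipoq and Retn in Ahr-/- skin (-1.56 and -0.78). Of 7 fibroblast markers 3 fell in Ahr+/- skin, and 4 fell and 1 rose in Ahr-/- skin. Of 7 neutrophil markers 5 rose in Ahr+/- and 7 in Ahr-/- skin, with medians of 2.02 and 5.73. Of 8 keratinocyte markers 2 rose in Ahr+/- skin (median 0.12), and 6 fell and 1 rose in Ahr-/- skin (median -1.88), led by the cornified envelope gene Lor (-3.58) and by Krt10 (-3.47). Of 5 endothelial markers 1 rose in Ahr+/- and 3 in Ahr-/- skin, with medians of 0.38 and 0.98. Of 6 macrophage markers 1 rose in Ahr+/- skin and 1 fell in Ahr-/- skin (medians 0.81 and -0.21), and of 3 measured Schwann cell markers 1 fell in each genotype (medians -0.76 and -0.37). Of 11 hair follicle growth genes 4 fell in Ahr+/- skin and none was called in Ahr-/- skin, with medians of -2.97 and -0.77. In untreated skin their mean log2 signal was 8.20 to 12.003 in Ahr+/- and 6.14 to 7.46 in Ahr-/- arrays. Between the untreated genotypes 9 of the 11 did not overlap, each lower in Ahr-/- skin, against 8.81% of all genes, and none was called. The part of these shifts in the muscle values was not tested.

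Across the 12 arrays the genes outside the list whose pattern was most like the mean of the 35 were Cmya5 (Pearson r = 0.965), Ppp1r12b (0.961), Akap6 (0.945), Hjv (0.938), Tmem182 (0.937), Kcnq5 (0.935), 5730455P16Rik (0.934), Adssl1 (0.933), Pdlim7 (0.933) and Cacna2d1 (0.933). Of these Kcnq5 and Adssl1 were called lower in Ahr-/- skin (-1.01 and -1.05) and none in Ahr+/- skin. Within the list the fast genes Tnni2 (0.969), Tnnt3 (0.966) and Actn3 (0.959) tracked the mean of the other members most closely, Tnni1 (-0.67) and Trim63 (-0.42) ran against it, and Tnnc1 (-0.11) and Actn2 (-0.07) had correlations close to 0. These correlations are descriptions over arrays that share groups and include the low Ahr+/- replicate.

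For 13 of the 35 genes the array holds more than 1 probe set, and some of them disagree. Ttn read -0.47 and -0.62 with the set used, while the other 5 ranged from -2.24 to -0.26 in Ahr+/- skin and from -1.49 to 0.14 in Ahr-/- skin. A second Myh4 set read -1.99 and -1.41, close to the set used in Ahr-/- skin. A further Fbxo32 set read 0.75 and 0.72, against 0.30 and 0.07 with the set used. For Mybpc1 a dimmer set read 0.85 in Ahr+/- and -1.06 in Ahr-/- skin. When the probe sets of each gene were averaged, 4 members were called in Ahr+/- skin, with Ttn added, and 11 in Ahr-/- skin, where Actn2 and Actn3 gave way to Ckm and Ryr1. Over all genes 7.97% and 18.4% were called in that fit.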

How the data were processed

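Total RNA from mouse skin was hybridized to Affymetrix Mouse Genome arrays, with 3 arrays in each of 4 groups taken from the labels. The deposited values are log2 signals that the authors made by robust multi-array averaging (RMA) in the R package affy. Their versions are not given in the sources used here. This step scales the arrays to a common distribution, which assumes that most genes do not shift. Every array column was mapped to a sample. Of 45101 probe sets, 64 were controls, 932 named several genes and 9160 had no symbol, and 34945 were left for 18193 genes, of which each kept its brightest.

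All 12 arrays were fitted together by group in limma 3.58.1 (R 4.3.3; 8 residual and 4.44 prior degrees of freedom), and p-values were adjusted by Benjamini-Hochberg over all genes. Calls needed a fold change of 1.5 or more besides an adjusted p under 0.05. The scripts used Python 3.11.15, pandas 2.3.3 and scipy 1.17.1 and were tested on simulated data. The rank product of the study's methods was rebuilt with 100 permutations and a share of false positives under 0.01. The members and lists were chosen with earlier results of these data known. Array values were to be given for Acta1, Ckm, Myh4, Myh7, Des, Trim63 and Fbxo32, for the 2 highest and 2 lowest differences of each comparison and for the 6 largest called changes in each direction, up to 4 called genes of each other list were to be named, and so were the 10 genes most like the members' mean. The number of arrays limits the precision. Promoters came from RefSeq on GRCm38.p6. Alternatives covered the probe set rule, a filter on dim genes, thresholds, scaling, the variance model, array weights, the groups fitted, the replicate block, RNA quality and each array left out.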

Additional observations from a re-analysis of the deposited data

How the results depend on the processing

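Over 26 alternatives the 50 differences of named genes gave 1292 values, of which 1100 kept direction and call, 133 lost and 36 gained a call and 23 changed sign; no called difference changed sign. In Ahr+/- skin, where 3 muscle genes were called on day 2, the counts were 0 at an adjusted p under 0.01, 1 with a variance trend and robust priors, 12 with array weights, 0 when the groups were fitted alone, 1 without Ahr-/- IMQ replicates 1 and 2, 0 by the rank product, and 0 to 17 with single arrays left out. In Ahr-/- skin, where 11 were called, they were 3 at an adjusted p under 0.01, 18 with array weights, 3 with the Gapdh difference as a covariate, 1 without Ahr-/- IMQ replicates 1 and 2, 5 centred on the muscle median, 0 by the rank product, and 4 to 15 with single arrays left out. For the genotypes on day 2, where 0 were called, they were 3 with array weights, 2 when fitted alone and 0 to 2 with single arrays left out. For the response difference, also at 0, the counts of muscle genes were 2 with array weights, against 11.5% of all genes, and 0 to 1 with single arrays left out. No muscle gene was called in untreated skin under any setting. With the replicate number as a block 2 (Mybpc2 and Pvalb) and 10 (all but Actn2) were called on day 2, against 9.12% and 22.8% of all genes. The labels do not say whether the numbers pair the samples. Correlations of same-numbered arrays ran from -0.18 to 0.32 and of different-numbered ones from -0.36 to 0.24. These overlapping ranges cannot decide it. Sign changes of uncalled log2 differences were as follows. Centred on the muscle median, Myl1 (0.19), Acta1 (0.28), Des (0.30), Myh7 (0.086) and Tnni1 (0.27) turned positive in Ahr+/- and Myh7 (0.26) in Ahr-/- skin. Array weights gave -0.15 for Fbxo32 in Ahr+/- and 0.012 for Myh7 in Ahr-/- skin. The Gapdh covariate gave 0.25 for Myl1 between genotypes on day 2, 0.059 for its response difference and -0.055 for Fbxo32 in Ahr-/- skin. Without Ahr-/- IMQ replicates 1 and 2, Myl1 (0.24) and Casq1 (0.14) turned between genotypes and Fbxo32 (-0.19) in Ahr-/- skin. With single arrays left out the ranges were -0.54 to 0.12 for Des and -0.45 to 0.29 for Tnni1 in Ahr+/- skin, -0.28 to 0.29 for Fbxo32 and -0.13 to 0.059 for Myh7 in Ahr-/- skin, and in untreated skin -0.65 to 0.086 for Tnni1, -0.014 to 0.91 for Pygm and -0.022 to 0.75 for Casq1. Beyond what each setting's construction changes, the cause was not tested. With 3 arrays a group, a median standard error of 0.32 on the log2 scale limits what could be called, and genes near either end of the signal range have little room to move.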
